A study of Rattus norvegicus with 8 samples.

Results

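AMPA receptors are the glutamate-gated channels that carry most fast excitatory transmission in the cortex. Each is a tetramer of subunits encoded by Gria1 to Gria4, and receptors that contain the edited product of Gria2 let little calcium through. Transmembrane AMPA receptor regulatory proteins, or TARPs, among them stargazin (Cacng2) and the products of Cacng3 and Cacng8, bring the channels to the membrane, anchor them at the postsynaptic density and slow their closing. Neuronal pentraxins (Nptx1 and Nptx2) are secreted proteins that bind AMPA receptors from outside and gather them at synapses, in particular on interneurons.

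The transcripts of these 9 genes were followed in rat frontal cortex through every probe set whose symbol in the platform's annotation was exactly one of the 9 names. That gave 13 probe sets for 8 genes, out of 31042 probe sets that were not controls. No probe set in the annotation used here carried the symbol Nptx2, and this gene was not analysed here. Gria1, Cacng3, Cacng8 and Nptx1 had 1 probe set each, Gria2, Gria3 and Cacng2 had 2 each, and Gria4 had 3.

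The animals were male Sprague-Dawley rats, an outbred strain, weighing about 200 g at the start. Random assignment gave 20 rats to each group. One received olanzapine, an antipsychotic that blocks dopamine and serotonin receptors, as an intraperitoneal dose of 2 mg/kg/day for 21 days, and the other received saline. Frontal cortex from 4 rats of each group was put on Affymetrix arrays, 1 array a rat. Arrays are named below by group and by the number in their label: saline 14, 15, 17 and 19, and olanzapine 9, 14, 18 and 19. The design asks which cortical transcripts differ after repeated olanzapine.

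Values are deposited intensities, scaled so that the trimmed mean of every array was nearly the same (497.9 to 498.8). An intensity has no absolute unit, and levels of different probe sets cannot be set against each other. Median intensities were 159 to 191 per array. The brightest 5% of all probe sets had a median log2 value of 12.38 to 12.40 in saline 14, 15 and 17, of 12.26 in saline 19 and of 12.22 to 12.28 in the olanzapine arrays, so saline 19 stood with the olanzapine arrays at the bright end. Of the cell type markers found on the array, 4 of 5 for cortical excitatory neurons were above the filter on dim probe sets. So were 3 of 6 striatal and 2 of 4 cerebellar neuron markers, and 0 of 4 choroid plexus markers. The filter passed 18625 of all 31042 probe sets and is not a detection call. Passing it therefore does not show that a transcript was present. The number of arrays, 4 a group, limits the precision.

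The main result was that no AMPA receptor, TARP or pentraxin transcript passed the test between olanzapine and saline. The clearest differences were those of Gria3 and Gria2, at 0.789-fold and 0.854-fold of saline on 1 probe set each, and both probe sets lay in a range of brightness where most transcripts were lower in olanzapine. Gria1, Gria4, Cacng3 and Nptx1 differed by less than the spread between arrays of a group. Cacng2 and Cacng8 were too dim to be tested. In bulk tissue, fewer cells of a type and less RNA per cell cannot be told apart.

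Differences are log2 differences, olanzapine minus saline, of log2(intensity + 63.5), a scale that understates the change of dim transcripts. They were tested with limma over all 18625 probe sets above the 40th percentile of mean brightness, which 10 of the 13 passed. By limma, 0 of the 10 had an adjusted p under 0.05, as did 0 of all tested probe sets (0%). At an unadjusted p under 0.05 there were 2 of the 10, against 8.32% of all tested probe sets, and both were lower, against 3.73% of all. Of the 10, 8 were lower in olanzapine, against 44% of all. The median difference was -0.10 over the 10 and 0.027 over all. With 1 array left out the median over the genes' tested probe sets ran from -0.14 without saline 15 to -0.029 without saline 17. The set was not fixed: 10 were above the filter without saline 15 and 11 without saline 17, so this upper end is not over the same 10. In none of the 10 were the 4 arrays of one group all above the 4 of the other, which was so for 4.47% of all.

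**Figure D1:**
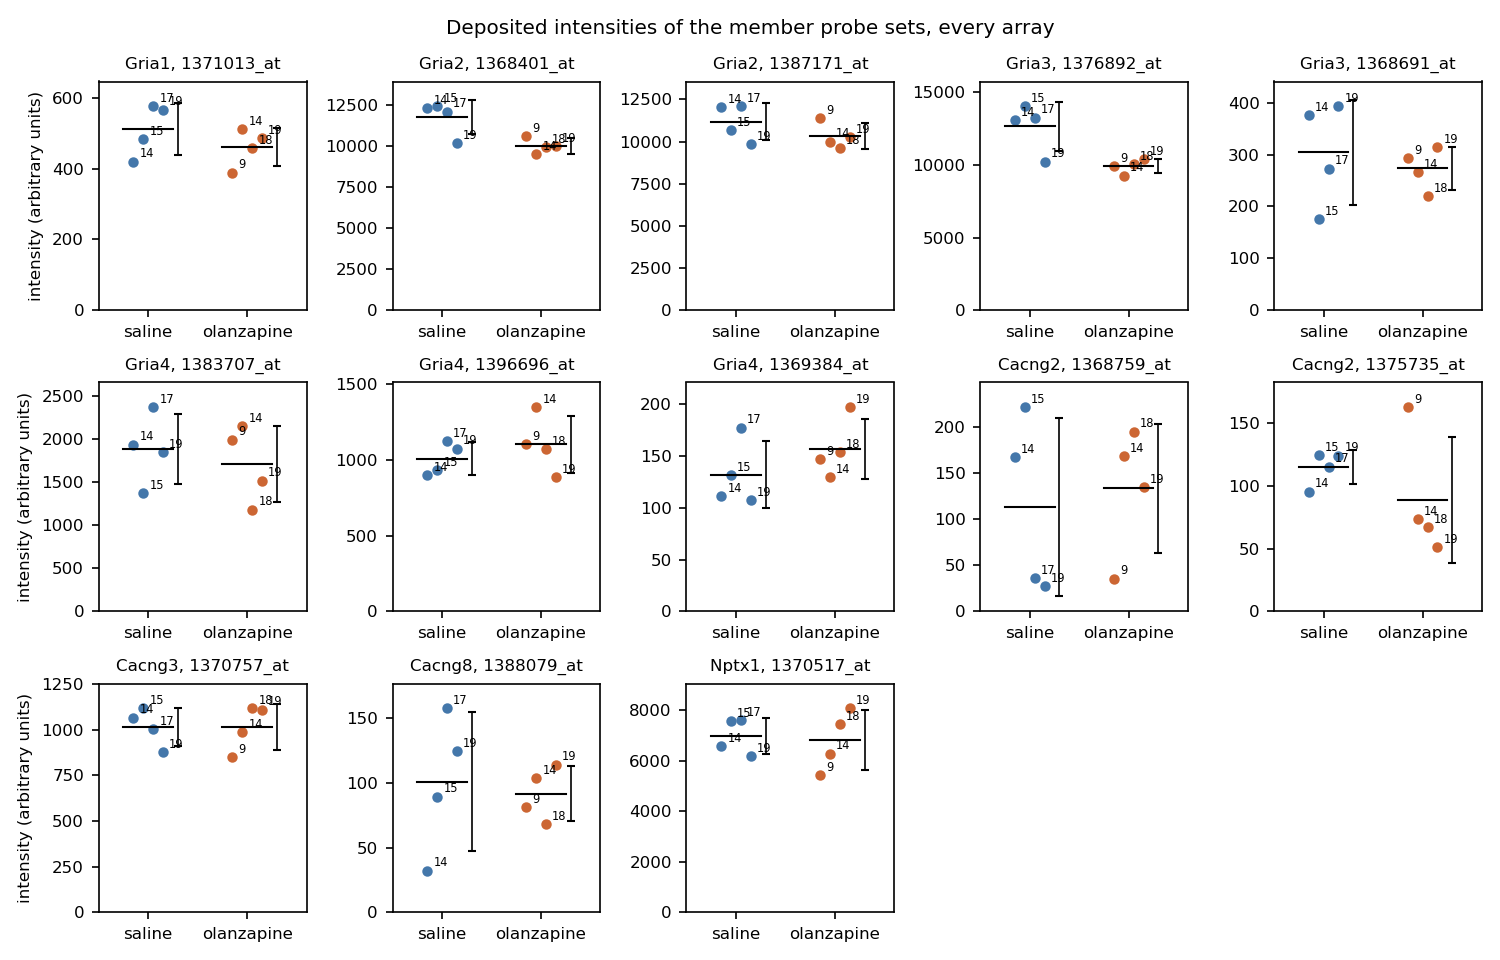
Deposited intensity (vertical axis, arbitrary units, from 0) of each of the 13 probe sets on each of the 4 saline and 4 olanzapine arrays. Points are single arrays labelled with their number, horizontal lines are group means and bars are 1 SD. Saline 19 lies among the olanzapine arrays for Gria2 1368401_at and Gria3 1376892_at, and the groups overlap in every panel.

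Gria3 encodes the GluA3 subunit, which pairs with GluA2 in many cortical receptors. Its brighter probe set, 1376892_at, read 13080, 14028, 13234 and 10220 in saline 14, 15, 17 and 19. It read 9887, 9259, 10039 and 10404 in olanzapine 9, 14, 18 and 19. The first 3 saline arrays were above all olanzapine arrays, and saline 19 was inside the olanzapine range, between olanzapine 18 and olanzapine 19. The saline mean was 12641 ± 1666 and the olanzapine mean 9897 ± 478 (SD, n = 4 each). The difference was -0.34 (SE 0.094, 95% interval -0.54 to -0.14, limma adjusted p = 0.352). An exact two-sided permutation test on this probe set alone gave p = 0.0571, where 0.0286 is the smallest that 70 assignments of the arrays can give.

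Without saline 19 the Gria3 difference was -0.44 and passed, with a limma adjusted p of 0.0186. That was 1 of 11 probe sets then above the filter, against 0.569% of all tested probe sets. Of the brightest 5% of probe sets, 5.92% passed as lower in olanzapine without saline 19. With each other array left out the Gria3 difference ran from -0.37 to -0.29 and did not pass.

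The dimmer Gria3 probe set, 1368691_at, read 377, 176, 273 and 393 in saline 14, 15, 17 and 19. Its olanzapine values were 294, 266, 220 and 314 in olanzapine 9, 14, 18 and 19, inside the saline range. Its difference was -0.091 (SE 0.20), and its interval, from -0.53 to 0.34, holds both 0 and the difference of the brighter probe set. The log2 ratio of the Gria3 probe sets within an array changed by -0.25 between groups (exact permutation p = 0.514).

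Gria2 encodes GluA2, the subunit whose edited form sets the low calcium permeability of the receptor. Probe set 1368401_at read 12336, 12443, 12106 and 10200 in saline 14, 15, 17 and 19. In olanzapine 9, 14, 18 and 19 it read 10637, 9505, 9921 and 10007. Again saline 19 fell within the olanzapine range and the other saline arrays lay above it. The difference was -0.23 (SE 0.082, 95% interval -0.40 to -0.054, limma adjusted p = 0.487, exact permutation p = 0.0571). Without saline 19 it was -0.29 with a limma adjusted p of 0.0625.

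The other Gria2 probe set, 1387171_at, read 12024, 10665, 12102 and 9866 in saline 14, 15, 17 and 19. It read 11404, 9998, 9599 and 10261 in olanzapine 9, 14, 18 and 19. Here saline 15 was also within the olanzapine range, and olanzapine 9 was above saline 15. The difference was -0.11 (SE 0.087, 95% interval -0.30 to 0.074, limma adjusted p = 0.789), and its sign turned to 0.11 after quantile normalization. The log2 ratio between the Gria2 probe sets averaged 0.077 ± 0.099 over the saline arrays and -0.040 ± 0.064 over the olanzapine arrays (SD, n = 4 each). An exact permutation test of it gave p = 0.0857. Over the 6 pairs of probe sets that share a gene, no ratio passed, with adjusted p-values of 0.514 to 0.914.

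Gria3 1376892_at and both Gria2 probe sets lay at brightness percentile 99.5 of all probe sets, and the differences at that end of the array were not centred on 0. The median difference was 0.071 in the dimmest 20% of tested probe sets and -0.25 in the brightest 1%, where 98.9% were lower in olanzapine. Of the brightest 5% of all probe sets, 80.4% were lower in olanzapine and 25.9% were lower at an unadjusted p under 0.05. The 500 tested probe sets nearest in mean brightness had a median difference of -0.20 around each of these 3 probe sets. Few probe sets lay above percentile 99.5, so most of these neighbours were dimmer. Their median was nearer 0 than the -0.25 of the brightest 1%, and a difference measured from it can come out too negative.

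**Figure D2:**
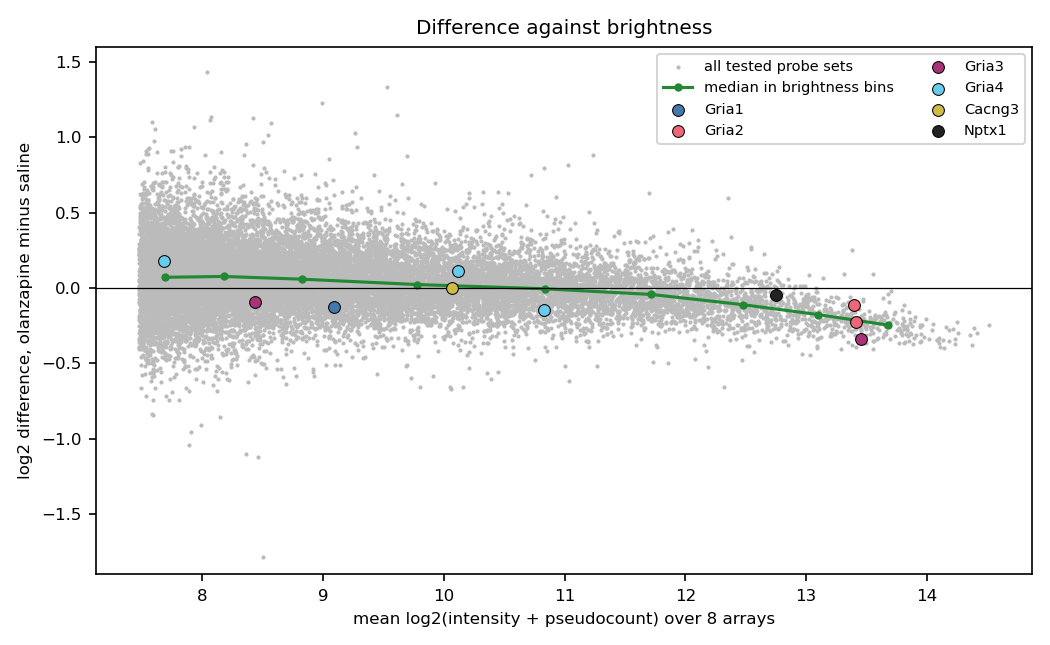
Log2 difference, olanzapine minus saline (vertical axis), against mean log2 brightness over the 8 arrays (horizontal axis) for the 18625 tested probe sets in grey, with the median in bins of brightness as a green line and the 10 tested AMPA receptor, TARP and pentraxin probe sets in colour. The median falls from 0.071 at the dim end to -0.25 at the bright end, where the Gria2 and bright Gria3 probe sets lie.

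Measured from those 500 neighbours, Gria2 differed by -0.029 on 1368401_at and by 0.088 on 1387171_at. These differences lay at percentiles 37.0 and 76.4 of the neighbours' own differences. Gria3 1376892_at differed by -0.14 from its neighbours, most of them dimmer, and lay at percentile 6.60. Its log2 value above the neighbours' median was 0.38, 0.47, 0.42 and 0.24 in saline 14, 15, 17 and 19. It was 0.21, 0.20, 0.22 and 0.27 in olanzapine 9, 14, 18 and 19. Only saline 19 was below an olanzapine array, olanzapine 19, and the exact permutation p was 0.0571 (not adjusted for the 10 probe sets).

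After quantile normalization, which gives all arrays the same distribution of values, the Gria3 difference was -0.11 (SE 0.051, unadjusted p = 0.0490, limma adjusted p = 0.782). Gria2 1368401_at differed by -0.018 (SE 0.046), with a 95% interval of -0.12 to 0.080. An unadjusted p under 0.05 was then found for 6.38% of all tested probe sets. With quantile normalization and without saline 19, the Gria3 difference was -0.15 and its adjusted p 0.528.

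**Figure D3:**
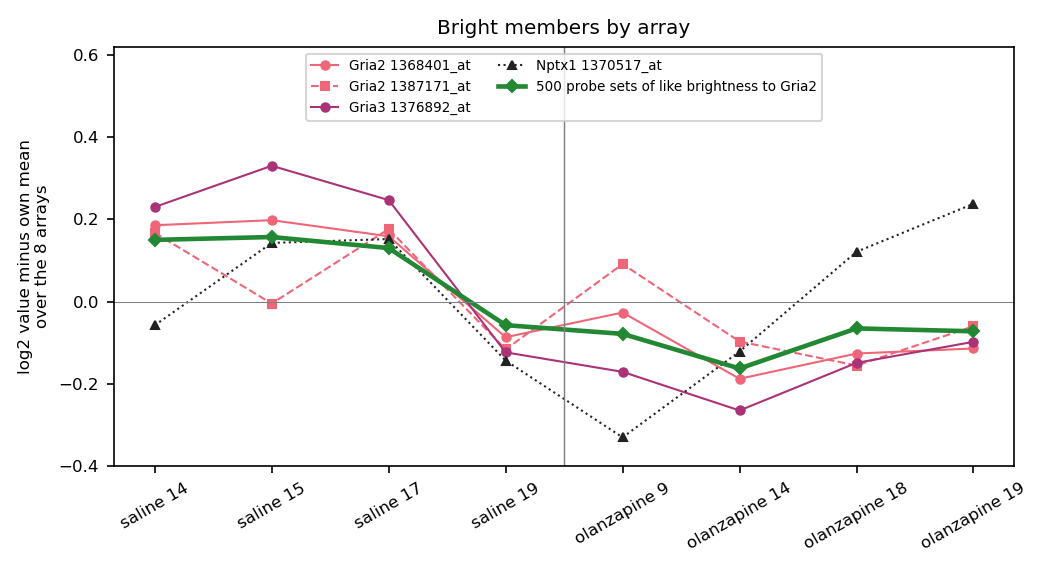
Log2 value minus its own mean over the 8 arrays (vertical axis) on each array (horizontal axis, saline left and olanzapine right of the line) for the 4 brightest of the 13 probe sets, and in green the median of the 500 tested probe sets nearest in brightness to Gria2 1368401_at. The green line is at 0.13 to 0.16 in saline 14, 15 and 17 and at -0.16 to -0.058 elsewhere. Gria2 1368401_at and Gria3 1376892_at are high on the same 3 arrays, and Nptx1 is not.

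The genes whose values over the 8 arrays were nearest to those of Gria2 1368401_at, out of 10122 other genes, were Rab6a, Vapa and Gja1. Rab6a encodes a Golgi transport GTPase, Vapa a tether between membranes and Gja1 the astrocyte gap junction protein connexin 43. Their root mean square distances from Gria2 were 0.021, 0.031 and 0.032 on the log2 scale after centring, and 323 genes lay within 0.1. All 3 probe sets lay among the brightest 1% as well, with differences of -0.23, -0.21 and -0.22.

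Gria1 encodes GluA1, the subunit that is added to synapses during long-term potentiation. Its probe set, 1371013_at, read 420, 483, 576 and 566 in saline 14, 15, 17 and 19. It read 388, 512, 458 and 486 in olanzapine 9, 14, 18 and 19. Saline 17 and 19 were above all olanzapine arrays, and saline 14 and 15 were within their range. The difference was -0.13 (SE 0.14, limma adjusted p = 0.855). Its 95% interval on the fold scale, 0.742 to 1.13, covers both a reduction and an increase. Around Gria1 the neighbours in brightness had a median of 0.025, so that the difference from them was -0.15 (exact permutation p = 0.257).

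Gria4 encodes GluA4, which is typical of fast-spiking interneurons in the adult cortex, and its 3 probe sets did not share a sign. Probe set 1383707_at read 1935, 1377, 2370 and 1847 in saline 14, 15, 17 and 19 and 1992, 2153, 1181 and 1518 in olanzapine 9, 14, 18 and 19. Its difference was -0.14 (SE 0.18), with saline 15, olanzapine 18 and olanzapine 19 low. Probe set 1396696_at ranged from 900 to 1127 in saline and from 886 to 1350 in olanzapine, a difference of 0.11 (SE 0.13). The dim probe set 1369384_at ranged from 107 to 177 in saline and from 130 to 197 in olanzapine, a difference of 0.18 (SE 0.20). In all 3 the groups overlapped over most of their range, and the limma adjusted p-values were 0.860 to 0.872. The sign of 1383707_at turned to 0.014 without olanzapine 18. Arrays of a group differed more on 1383707_at than on most probe sets of like brightness. Its SD within groups, 0.35 on the log2 scale, was above that of 96.8% of the 500 nearest in brightness. With 1 array a rat, this SD holds both rat and array differences.

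Cacng3 encodes TARP gamma-3, a close relative of stargazin, and was the 1 TARP bright enough to be tested. It read 1066, 1116, 1004 and 875 in saline 14, 15, 17 and 19. It read 849, 986, 1118 and 1110 in olanzapine 9, 14, 18 and 19. The groups covered nearly the same range, with saline 19 and olanzapine 9 the lowest of each. Means were 1015 ± 104 and 1016 ± 126 (SD, n = 4 each), and the difference was -0.0016 (SE 0.12, 95% interval -0.26 to 0.26, limma adjusted p = 0.998). On the fold scale the interval ran from 0.834 to 1.20.

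The set of promoter sequences used here covered 5 of the 9 genes, Gria4, Cacng2, Cacng3, Cacng8 and Nptx2. The Cacng3 promoter is shown because it was the 1 promoter of these that holds the first letters of the RE1 element, TTCAGCACC. RE1 is bound by the repressor REST, which keeps many neuronal genes silent outside neurons. The 250 bases before the Cacng3 start site, chr1:186632312-186632561 on the plus strand of GRCr8, are given with these letters in capitals.
Cacng3: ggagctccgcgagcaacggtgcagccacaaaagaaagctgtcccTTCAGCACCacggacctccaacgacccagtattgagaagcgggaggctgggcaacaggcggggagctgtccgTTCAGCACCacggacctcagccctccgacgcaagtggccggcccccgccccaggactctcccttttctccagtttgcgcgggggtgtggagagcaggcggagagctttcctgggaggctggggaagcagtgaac

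The motif occurs 2 times, starting at positions -206 and -134 from the start site, both in the direction of the gene. It was searched on both strands and chosen after the sequence was seen, and 0.305% of 33469 promoter windows of that length hold it. A match is not evidence of binding, and these arrays did not measure it. The same window holds the GC box GGGCGG 1 time, as do 30.5% of all windows at least once on either strand.

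Cacng2 encodes stargazin, the founding TARP, and Cacng8 encodes TARP gamma-8, which is abundant in forebrain. Their 3 probe sets were below the filter, at brightness percentiles 34.1 to 38.1. Cacng2 1368759_at read 167, 221, 36 and 27 in saline 14, 15, 17 and 19, and 36, 168, 195 and 135 in olanzapine 9, 14, 18 and 19. It was at 27 to 36 on 3 arrays from both groups and at 135 to 221 on the other 5, with nothing between. Its SD within groups, 0.74 on the log2 scale, exceeded that of 98.4% of the 500 probe sets nearest in brightness. The other Cacng2 probe set, 1375735_at, was at 95 to 124 in saline and at 51 to 163 in olanzapine. Olanzapine 9, low on the first, was the highest on the second, and the rats that were low on one were not low on the other. Cacng8 1388079_at was at 32 to 158 in saline and 68 to 114 in olanzapine. Fitted without the filter, the differences of these 3 were 0.25, -0.28 and -0.027, with limma adjusted p-values of 0.935, 0.877 and 0.994.

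Nptx1 encodes neuronal pentraxin 1. Its probe set, 1370517_at, read 6575, 7565, 7615 and 6191 in saline 14, 15, 17 and 19. It read 5430, 6287, 7452 and 8086 in olanzapine 9, 14, 18 and 19. The lowest and the highest of the 8 values were both in olanzapine. Means were 6986 ± 715 and 6814 ± 1186 (SD, n = 4 each), and the difference was -0.047 (SE 0.12, 95% interval -0.29 to 0.20, limma adjusted p = 0.943). Nptx1 lay at brightness percentile 98.6, where the median of the 500 neighbours was -0.13. Measured from them it differed by 0.082 (exact permutation p = 0.571), and its sign was positive after quantile normalization as well, at 0.095.

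**Figure D4:**
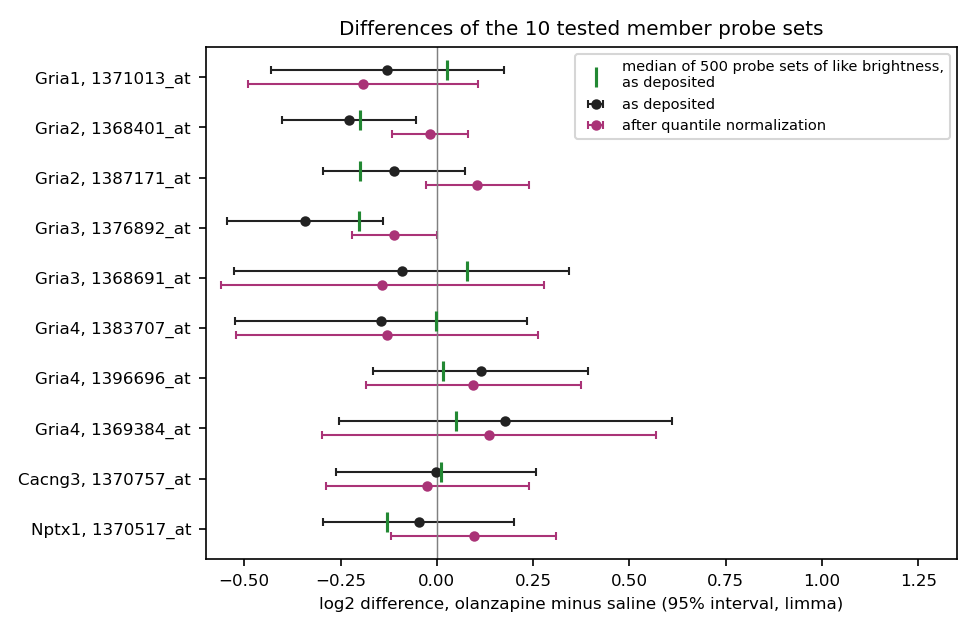
Log2 difference, olanzapine minus saline (horizontal axis), of the 10 tested probe sets with 95% intervals from limma, as deposited in black and after quantile normalization in purple. Green ticks mark the median difference of the 500 tested probe sets nearest in brightness, as deposited. Measured from its tick, the black value of Gria3 1376892_at differs by -0.14. Gria1 differs by -0.15, Gria3 1368691_at by -0.17 and Gria4 1383707_at by -0.14 from theirs. Gria4 1369384_at differs by 0.13 in the other direction. The remaining black values, among them those of Gria2 1368401_at and Nptx1, lie within 0.1 of their tick.

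With 1 probe set a gene, the brightest, 6 of the 9 genes were tested and 6 of 6 were lower in olanzapine. Their median was -0.14, and -0.068 after quantile normalization. Of all 18625 tested probe sets 8197 were lower and 10428 higher, but of the brightest 5%, where Gria2, Gria3 and Nptx1 lay, 80.4% were lower. Cacng3 was at -0.0016, and Nptx1 was at 0.095 after quantile normalization. The dimmer Gria4 probe sets, left out here, were higher (0.11 and 0.18), and those of Gria2 and Gria3 were lower. NMDA receptor subunit genes, which encode other glutamate-gated channels of the same synapses, had 4 of 5 tested genes higher and a median of 0.053. Without saline 19 that median was 0.21. Kainate receptor subunit genes had 3 of 3 tested genes higher and a median of 0.18, which ran from 0.063 without saline 15 to 0.30 without saline 17. None of these NMDA or kainate genes had an unadjusted p under 0.05. The families differ in brightness, with the NMDA genes at percentiles 59.2 to 77.2 apart from Grin1 at 84.2, and the difference between families was not tested.

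The other proteins of AMPA receptor complexes were described by gene lists, again with 1 probe set a gene. By limma none of their members had an adjusted p under 0.05, and 3 of the 39 tested in the 4 lists that follow did not overlap between groups, against 4.47% of all tested probe sets. Of auxiliary subunit and assembly genes 10 of 16 were tested, with 7 lower, 3 higher and a median of -0.045. Shisa9, which encodes the auxiliary subunit CKAMP44, read 666 to 849 in saline and 499 to 635 in olanzapine, so the groups did not overlap. Its difference was -0.31 (SE 0.13, unadjusted p = 0.0279, limma adjusted p = 0.532), and it was -0.36 after quantile normalization. Cnih2, which encodes the auxiliary subunit cornichon-2, differed in the other direction, by 0.23 (SE 0.12, unadjusted p = 0.0840).

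Of trafficking and scaffold genes 19 of 23 were tested, with 10 lower, 9 higher and a median of -0.011. Nsf, whose ATPase binds GluA2 and keeps receptors at the surface, was the 1 of 19 with an unadjusted p under 0.05, against 8.32% of all tested probe sets. It read 3348 to 4861 in saline and 3137 to 3470 in olanzapine, with saline 17 and 19 inside the olanzapine range (difference -0.29, SE 0.12, limma adjusted p = 0.526). Of the RNA editing enzyme genes 2 of 3 were tested. Adarb1, which encodes the enzyme that edits the Gria2 transcript at its calcium permeability site, differed by -0.12 (SE 0.11), while its neighbours in brightness had a median of -0.11. Adar read 931 to 1021 in saline and 1051 to 1291 in olanzapine without overlap (difference 0.24, SE 0.11, limma adjusted p = 0.565).

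Of genes for extracellular organisers of AMPA receptors 8 of 12 were tested, with 6 lower, 2 higher and a median of -0.15 that was -0.038 after quantile normalization. Nptxr, the membrane-bound receptor of the pentraxins, read 3631 to 3877 in saline and 3164 to 3758 in olanzapine, with only olanzapine 14 inside the saline range. Its difference was -0.12 (SE 0.084, limma adjusted p = 0.764). Adam22, the postsynaptic receptor for the secreted protein LGI1, read 4839 to 5741 in saline and 3914 to 4289 in olanzapine, again without overlap. It differed by -0.32 (SE 0.085, unadjusted p = 0.00166, limma adjusted p = 0.330), its neighbours in brightness had a median of -0.084, and saline 19 was its highest array. Nrn1 and Adam23 differed by -0.20 and -0.24 as deposited. Both lay at brightness percentile 99.7, and the neighbours of both, most of them dimmer, had a median of -0.20. With quantile-normalized arrays the values for Nrn1 and Adam23 were 0.028 and -0.011. Adam17, which encodes a protease that cleaves the pentraxin receptor, differed by 0.37 (SE 0.17, limma adjusted p = 0.598).

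Genes that neurons induce on firing, a class to which Nptx2 belongs, had 8 of 13 tested members higher and a median of 0.23. The 4 of 13 with an unadjusted p under 0.05, against 8.32% of all tested probe sets, were Nr4a1, Homer1, Fosb and Nr4a3, at differences of 1.02, 0.60, 0.55 and 0.44, and limma adjusted p-values of 0.317 to 0.555. Arc, whose product removes AMPA receptors from the membrane, differed by 0.23 (SE 0.22). Without saline 17 the median of the list was -0.088.

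By limma no marker of the cell types of the tissue had an adjusted p under 0.05. Of all 18625 tested probe sets, 8.32% had an unadjusted p under 0.05, 10428 were higher in olanzapine and 8197 lower. The marker counts below are to be read beside these. Of 6 meningeal markers 6 were higher in olanzapine, with summed intensities of 1238 to 1413 in saline and 1786 to 3234 in olanzapine. Igf2, Col1a1, Col1a2 and Col3a1 were the meningeal markers with an unadjusted p under 0.05, at differences of 1.14, 0.57, 0.73 and 0.52. Of 7 astrocyte markers 6 were lower, with summed intensities of 37413 to 43794 and 34677 to 38945. Slc1a3 and Gja1 had an unadjusted p under 0.05, at -0.30 and -0.22. They lay at the bright end, where their neighbours, most of them dimmer, had medians of -0.18 and -0.20. After quantile normalization Slc1a3 was at -0.11 and Gja1 at 0.080, and the median of the astrocyte markers went from -0.16 to -0.076. Of 4 tested excitatory neuron markers 2 were higher, with summed intensities of 4198 to 4673 and 4212 to 4980, and of 6 tested interneuron markers 3 were higher, at 11949 to 14021 and 12147 to 13063. The microglial markers Cx3cr1, Itgam and C1qb were below the filter. Tested oligodendrocyte markers were higher in 5 of 5, tested precursor markers in 1 of 2, tested microglial markers in 3 of 3 and tested endothelial markers in 4 of 5. Of these, Mobp of oligodendrocytes, at 0.51, and Pecam1 of endothelium, at 0.38, had an unadjusted p under 0.05. Tested striatal neuron markers were higher in 1 of 3 and tested cerebellar ones in 1 of 2, and the 4 choroid plexus markers were below the filter. No marker had a value of 0, but neither had any other probe set, the lowest deposited value being 0.238. The absence of a 0 therefore does not show that a marker was detected. The part of these cells in the differences above was not tested.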

How the data were processed

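Per the labels, RNA of rat frontal cortex was hybridised to arrays. The authors deposited 1 table of linear probe set intensities for 31099 probe sets on 8 arrays, 57 of them controls that were left out here. The values show scaling to a common trimmed mean (lowest and highest 2% removed). No label or header used here names the software, the background correction or a detection call.

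Gene symbols came from the 2016 annotation of the platform, and list genes were updated by Entrez identifier from RefSeq (GRCr8, names only). Of 31042 probe sets, 20826 had 1 symbol, 436 several and 9780 none. Intensities were converted to log2(intensity + 63.5), the 25th percentile of all values, and probe sets at or below the 40th percentile of mean log2 value were not tested. Groups were compared with limma 3.58.1 in R 4.3.3 (eBayes with a mean-variance trend, two-sided, no covariates, Benjamini-Hochberg over 18625 probe sets). Simulated data for this comparison held 200 changed probe sets of 18625 in each of 10 runs. In them 45.6% of 1.5-fold and 86.8% of 2-fold changes were called, and 6.48% of calls were false. Their noise was independent between probe sets, without the shift of bright probe sets seen on the real arrays. These shares are therefore not the power of the real comparison. Single probe sets also had an exact two-sided permutation test over 70 assignments. Each probe set was set beside the 500 tested ones nearest in mean brightness.

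The genes and lists were chosen with earlier results of these data known. All probe sets of the 9 genes are named. Of each pathway list, members with an unadjusted p under 0.05 are named (at most 5), with Nptxr, Cnih2, Adarb1 and Arc whatever their p, and the 3 genes nearest to Gria2; the same rule could not be applied to Nptx2. Grin1 is named for its brightness, and cell type markers with an unadjusted p under 0.05 were added after their values were seen. Alternatives were other scalings, pseudocounts, filters and variance models, the label number as a block, and leaving out each array.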

Additional observations from a re-analysis of the deposited data

Results flagged for a closer look

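Among the 26 groups of 4 values examined, 1 held a sample far from the others. Gria2 1368401_at was at 10200 in saline 19, against 12106 to 12443 in the other saline arrays. The gap to the nearest array was 0.850 of the group's range, above Dixon's 95% critical value for 4 values. Chance flags about 1 in 20 groups. Saline 19 was also the lowest saline array for the 500 probe sets of like brightness.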

How the results depend on the processing

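No setting but the omission of saline 19 gave an adjusted p under 0.05 to any of the 9 genes' probe sets. Over all probe sets 0 to 106 passed with 1 array left out (106 without saline 19 and 1 without olanzapine 9), and of the genes' probe sets 0 to 1 passed. Quantile normalization, cyclic loess and a fit without variance trend each left 1 of the genes' probe sets at an unadjusted p under 0.05 in place of 2. With quantile normalization the median over the genes' probe sets was -0.021 and that of the extracellular organisers -0.038, which was -0.053 with cyclic loess. Signs that turned with quantile normalization were those of Gria2 1387171_at (0.11) and Nptx1 (0.095), and with cyclic loess they were 0.060 and 0.083. Without the filter the median of the editing enzymes was -0.072 and that of kainate genes 0.0061, and with the filter at the 60th percentile that of trafficking genes was -0.092. These follow from other genes being tested, and the cause of the other shifts was not tested.

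With 1 array left out, Gria3 1376892_at ran from -0.44 to -0.29, Gria3 1368691_at from -0.28 to 0.028, Gria4 1383707_at from -0.28 to 0.014, Cacng3 from -0.067 to 0.076 and Nptx1 from -0.13 to 0.056. List medians ran from -0.12 to -0.036 for auxiliary genes, from -0.052 to -0.0073 for trafficking genes, from 0.016 to 0.13 for editing enzymes, from -0.017 to 0.21 for NMDA genes and from -0.088 to 0.37 for activity-regulated genes. The lower ends for auxiliary and trafficking genes came without saline 15. Then 11 and 20 of their genes were above the filter, in place of 10 and 19. Quantile normalization without saline 19, chosen after seeing the data, gave 5 passing probe sets, 0 of them of these genes, and 1 of these genes' probe sets at an unadjusted p under 0.05. Its medians were -0.13 for auxiliary and -0.025 for extracellular genes, with Gria2 1387171_at at 0.10 and Nptx1 at 0.085.

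Numbers 14 and 19 occur in both groups, with correlations of deviations of 0.075 and 0.11. Saline 14 was nearest to olanzapine 14 and saline 19 to olanzapine 9. The labels do not say that a number pairs rats, and the numbers were not taken to do so. With the number as a block 6 probe sets passed, 0 of them of these genes, and 0 of these genes' probe sets had an unadjusted p under 0.05. The medians were then -0.017 over the genes' probe sets and -0.066 for extracellular genes, and those of activity-regulated and trafficking genes turned to -0.072 and 0.010. Signs also turned for Gria1 at 0.028, Cacng3 at 0.11 and Nptx1 at 0.16. Arrays carry no measure of signal over background here, which leaves the dim Cacng2 and Cacng8 values without a detection call.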
